A study of Homo sapiens with 12 samples.

Results

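Chondroitin sulfate is 1 of the glycosaminoglycan chains that betaglycan carries, and the 10 genes described here encode enzymes that start, lengthen or sulfate it, though not all that do so: CSGALNACT1, CSGALNACT2, CHSY1, CHSY3, CHPF, CHPF2, CHST3, CHST11, CHST12 and CHST15. These 10 genes were chosen by their known role, with earlier results of these data known, from 56269 genes in the count table, and 9 of them were among the 16069 genes with enough counts to test. RNA-seq was run on 12 libraries of HEYA8, an established human ovarian cancer cell line, grown in RPMI-1640 with 10% serum and given by the labels as resting. The betaglycan constructs were carried by a lentiviral pHIV-dTomato vector, and the infected cells were sorted by the dTomato marker into stable populations. The paper does not state the vector or the sorting of the control vector cells. Each betaglycan group is thus a population of transduced cells of a single line, on top of the line's own betaglycan gene. The 4 groups of 3 libraries were labelled control vector, S534A, which is the single-chain mutant CS-BG with serine 534 changed to alanine, S545A, which is the single-chain mutant HS-BG with serine 545 changed to alanine, and ∆GAG-BG, which has both serines changed. CS-BG and HS-BG are the paper's names, and its enzyme digestion found chondroitin sulfate as well as heparan sulfate on S534A. The third S545A library has a title that reads S545S but a genotype label of S545A, and it was used as S545A. No label says that the 3 libraries of a group came from separate cultures, so p-values measure the spread between these libraries, which may be technical.

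A chondroitin sulfate chain is built in the Golgi on a serine that is followed by a glycine. A short linker of sugars is laid down first, and the same linker serves heparan sulfate, so the first sugar added after it decides which chain is made. An N-acetylgalactosaminyltransferase starts a chondroitin chain, synthases then add glucuronic acid and N-acetylgalactosamine in turn, and sulfotransferases set the pattern of sulfate groups that growth factors and other proteins recognise. The serines in question lie in exon 11 of TGFBR3, the betaglycan gene, on the minus strand of chromosome 1 (GRCh38, GENCODE release 29, transcript ENST00000212355.8). Their reference coding sequences are shown because these are the acceptor sites at which the betaglycan constructs differ, while the control vector holds no such construct. Capitals mark the serine codon and the glycine codon after it. The site of serine 534 spans chr1:91716649-91716696 with its serine codon at 91716673 to 91716675, and that of serine 545 spans chr1:91716616-91716663 with its codon at 91716640 to 91716642.
Serine 534: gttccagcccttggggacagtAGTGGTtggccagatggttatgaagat
Serine 545: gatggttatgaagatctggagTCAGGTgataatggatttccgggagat

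Library depth and identity were checked before the enzymes were examined. Total counts ran from 16410001 to 29504297 per library. Levels are given as CPM, the counts of a gene scaled to the library's depth, after TMM scaling within the count model, and the limit that a count of 0 allows, 3 counts, was 0.102 to 0.183 CPM across the libraries. TGFBR3, which the constructs encode, was 413 to 476 CPM in the S534A libraries and 520 to 574 CPM in the S545A libraries. It was 259, 20.3 and 21.4 CPM in libraries 1, 2 and 3 labelled ∆GAG-BG and 15.9, 259 and 259 CPM in those labelled control vector. In libraries 2 and 3 of both of these groups TGFBR3 therefore goes against the label, and every direction below that involves them is a direction between libraries labelled ∆GAG-BG or control vector. Library 1 labelled ∆GAG-BG also stood apart by HSPA5, an endoplasmic reticulum chaperone, at 11900 CPM against 287 to 3900 CPM in the other 11. S534A library 2 stood apart on the low side, with HSPA5 at 287 CPM against at least 1230 CPM in the other 11, HSP90B1 at 283 against at least 913 CPM and CALR at 231 against at least 697 CPM, all genes of that same compartment. Of the other genes listed for endoplasmic reticulum stress, PDIA4, HERPUD1, XBP1 and ATF4 were also lowest in S534A library 2. DNAJB9, SDF2L1 and DDIT3 did not set it apart, at 4.5, 9.14 and 7.37 CPM there against lowest values of 4.27, 8.98 and 5.11 CPM. Outside S534A, libraries 2 and 3 of a group were nearly identical: the chi-square between their counts, divided by its degrees of freedom, was 1.4 to 1.99, whereas it was 17.3 to 77.9 in all other pairs of one group. Among markers of serous ovarian carcinoma, PAX8 was 193 to 295 CPM and KRT7 745 to 1140 CPM, KRT8 687 to 1010 CPM and KRT18 451 to 674 CPM, while MSLN was 6.89 to 18.0 CPM, WT1 3.41 to 8.37 CPM, EPCAM 0.367 to 1.76 CPM and MUC16 at 0 counts in all 12 libraries. Of the mesenchymal markers, VIM was 2340 to 3130 CPM, CDH2 114 to 150 CPM and FN1 321 to 1410 CPM. Of the blood markers, CD3E was at 0 counts in all 12 libraries and PTPRC and CD14 reached at most 0.0906 and 0.188 CPM. Of the endothelial markers, PECAM1 stayed at or below 0.767 CPM and CDH5 was 168 to 431 CPM.

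HEYA8 cells held mRNA for starting, lengthening and sulfating the chain, and of the 10 genes only CHST15 was not detected. Between genes, levels were compared as TPM, a share of all counts after division by the gene lengths in the count table. Such a length covers all annotated exons of a gene and can exceed that of the transcript expressed. Orders and ratios between genes therefore depend on the annotation. The median TPM over the 12 libraries was 63.7 for CHPF, 58.9 for CHST11, 49.3 for CHPF2, 33.2 for CHSY1, 23.2 for CHST3, 18.4 for CSGALNACT2, 6.77 for CHSY3, 5.26 for CHST12 and 0.27 for CSGALNACT1, and CHST15 had a median of 0. The order of CHPF and CHST11 was not fixed, since CHPF was the higher in 6 of 12 libraries. The TPM ranges also overlapped between CHST11 and CHPF2, between CHPF2 and CHSY1, between CHST3 and CSGALNACT2 and between CHSY3 and CHST12. They did not overlap between CHSY1 and CHST3, between CSGALNACT2 and CHSY3, between CHST12 and CSGALNACT1 or between CSGALNACT1 and CHST15. The table counts CHST12 over 16143 bases, the longest of the 10, so its level per length is lower than its CPM alone would place it. The transcript of CHST12 that was expressed was not determined, so its place in the order is uncertain.

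**Figure D1:**
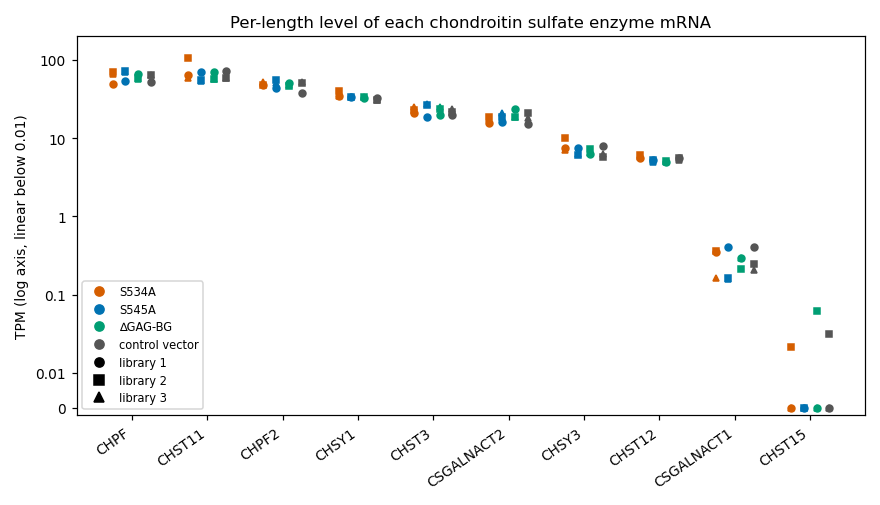
Level of each of the 10 enzyme mRNAs in every library, as TPM on a log axis that is linear below 0.01, with colour for the group and symbol for library 1, 2 or 3. Genes are ordered by median, from CHPF at 63.7 TPM to CHST15 at 0, and the libraries of the 4 groups are interleaved at each gene.

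Promoter sequence was available from RefSeq (GRCh38.p14) for 9 of the 10 genes, and the GC box was present at genes of high level and at CHST15 alike. The 9 genes have 12 windows of 250 bases before an annotated start, out of 35116 windows in the table. The GC box GGGCGG, on either strand, occurred in 10 of the 12 windows, at least 1 for each gene, against 42.6% of all windows. The TATA box TATAAA occurred in 0 of the 12, against 10.7% of all windows. GC content of these windows was 55.6% to 78.0%, lowest at CHST15 and against a median of 58.0% over all windows. The cAMP response element TGACGTCA, held by 1.6% of all windows, occurred 2 times at CHPF, and the E box CACGTG, held by 6.3%, occurred 1 time at CHSY1. The CCAAT box CCAAT (32% of all windows) was held by CHPF, the AP-1 site TGANTCA (6.6%) by CHST3, and the palindromic SMAD element GTCTAGAC (0.2%) by none of the 9. A match is a run of letters and not a shown binding site. Highest in S534A library 2 were CHST11, CHSY1 and CHSY3, and also CHPF and CHST12. Windows of 100 bases, free of annotated exons, are given 5′ to 3′ for 4 of the genes, with GC boxes of either strand in capitals. These are the windows of CHST11, CHSY1, CHSY3 and CHST15, the last of which was not detected above the counting limit. They lie at chr12:104456816-104456915 on the plus strand for CHST11, chr15:101252049-101252148 on the minus strand for CHSY1, chr5:129904365-129904464 on the plus strand for CHSY3 and chr10:124093608-124093707 on the minus strand for CHST15. Of the windows of 100 bases not shown, that of CHPF held 0 GC boxes and those of CHST3 held 0, 2 and 0. Those of CHST12, CHPF2 and CSGALNACT2 held 1 each.
CHST11: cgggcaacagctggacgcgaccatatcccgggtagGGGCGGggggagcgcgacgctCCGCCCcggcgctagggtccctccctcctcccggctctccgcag
CHSY1: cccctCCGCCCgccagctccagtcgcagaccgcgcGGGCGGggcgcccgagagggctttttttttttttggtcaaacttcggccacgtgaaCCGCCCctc
CHSY3: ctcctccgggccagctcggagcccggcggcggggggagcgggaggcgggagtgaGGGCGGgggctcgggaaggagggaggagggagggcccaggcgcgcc
CHST15: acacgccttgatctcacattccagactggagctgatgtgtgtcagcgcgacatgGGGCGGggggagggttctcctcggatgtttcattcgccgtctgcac

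The first N-acetylgalactosamine of the chain is added by CSGALNACT1 or CSGALNACT2, and nearly all of the mRNA for this step was CSGALNACT2. CSGALNACT2, on the plus strand of chromosome 10 (GRCh38, 43138486 to 43185308), was 13.4, 16.5 and 14.9 CPM in S534A libraries 1, 2 and 3 and 14.1, 15.8 and 17.9 CPM in the S545A libraries. It was 20.8, 16.3 and 15.8 CPM in the libraries labelled ∆GAG-BG and 13.4, 17.7 and 15.6 CPM in those labelled control vector. The 4 groups overlapped, and the highest value of the 12 was in library 1 labelled ∆GAG-BG, the one with the high HSPA5, whose part in this value was not tested. CSGALNACT1, on the minus strand of chromosome 8, had 4 to 18 counts per library, that is 0.533, 0.567 and 0.242 CPM in S534A, 0.62, 0.245 and 0.239 CPM in S545A, 0.453, 0.325 and 0.451 CPM in ∆GAG-BG and 0.622, 0.377 and 0.313 CPM in control vector libraries. At this depth the SE of its log2 fold changes in the count model was 0.435 to 0.467, so only a large difference could be detected. No difference in CSGALNACT1 between groups was detected, and the ranges of the 4 groups overlapped. Per length, the sum of both starter enzymes was 0.451 to 0.884 times the level of EXTL3, which starts heparan sulfate on the same linker, with a median of 0.689 over the 12 libraries. EXTL3 was counted over 13220 bases and CSGALNACT2 over 3730, so the size of the ratio depends on these annotated lengths. That TPM ratio averaged 0.61 ± 0.0984 in S534A, 0.709 ± 0.159 in S545A, 0.723 ± 0.146 in ∆GAG-BG and 0.663 ± 0.188 in control vector libraries (SD, n = 3 each), and the ranges of the 4 groups overlapped.

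Chain lengthening is the work of CHSY1 and CHSY3, synthases that hold both transferase activities, and of CHPF and CHPF2, partners that add to chain polymerization. CHSY1, on the minus strand of chromosome 15 (101175723 to 101251932), was 43.7, 52.3 and 43.2 CPM in S534A libraries 1, 2 and 3, 43.3, 42.9 and 42.4 CPM in S545A, 42.3, 42.6 and 42.4 CPM in ∆GAG-BG and 42.3, 39.5 and 39.7 CPM in control vector libraries. It was among the steadiest of the enzymes, with 1.33-fold between its lowest and highest library, and its highest value was in S534A library 2. CHSY3, on the plus strand of chromosome 5 (129904472 to 130186634), was 6.75, 9.44 and 6.36 CPM in S534A, 6.85, 5.53 and 5.63 CPM in S545A, 5.75, 6.68 and 5.82 CPM in ∆GAG-BG and 7.33, 5.27 and 5.71 CPM in control vector libraries. Its highest value was again in S534A library 2, and the 4 groups overlapped.

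CHPF, on the minus strand of chromosome 2 (219538947 to 219543787), was 37.4, 56.4 and 49.9 CPM in S534A, 41.7, 55 and 53.5 CPM in S545A, 52.6, 45.1 and 43.6 CPM in ∆GAG-BG and 40.7, 49.5 and 49.2 CPM in control vector libraries. CHPF2, on the plus strand of chromosome 7 (151232489 to 151238827), was 46.1, 48.2 and 49.5 CPM in S534A, 42.6, 52.9 and 48.9 CPM in S545A, 50.8, 44.6 and 46.1 CPM in ∆GAG-BG and 37.5, 49.3 and 50.5 CPM in control vector libraries. For both partners, library 1 was the lowest of its group in S534A, S545A and control vector and the highest in ∆GAG-BG. Exons of CHPF overlap those of TMEM198 by 125 bases on the opposite strand, and exons of CHPF2 overlap those of SMARCD3 by 64 bases, so without a stated strand setting a share of these reads could belong to either gene. The overlapping genes themselves had 27 to 102 counts (TMEM198) and 28 to 82 counts (SMARCD3) per library, against at least 824 for CHPF and 817 for CHPF2. The summed TPM of the synthases was 0.315 to 0.45 times that of the partners, with a median of 0.366.

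Sulfation at the 4 position of N-acetylgalactosamine is carried out by CHST11 and CHST12 and sulfation at the 6 position by CHST3, while outside the 10 genes CHST13 also acts at the 4 position and CHST7 at the 6 position. CHST7 was 4.66 to 8.67 CPM, with a median of 12.2 TPM, and CHST13 had at most 4 counts. CHST15 adds a further sulfate to sugars already sulfated at the 4 position. CHST11, on the plus strand of chromosome 12 (104455295 to 104762014), was 96.0, 163 and 85.6 CPM in S534A libraries 1, 2 and 3 and 106, 81.7 and 79.4 CPM in the S545A libraries. It was 109, 86.5 and 85.6 CPM in ∆GAG-BG and 109, 88.6 and 88.3 CPM in control vector libraries. S534A library 2, the one with the low HSPA5, stood above the other 11, as it did for CHSY1 and CHSY3. Whether the low HSPA5 has a part in these values was not tested. In the other 3 groups library 1 was the highest, so the groups overlapped. CHST11 had the largest spread of the tested enzymes, with an SD of 0.28 on the log2(CPM + 1) scale over the 12 libraries, against a median of 0.16 over the 9 enzymes and 0.17 over all genes tested.

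CHST12, on the plus strand of chromosome 7 (2403560 to 2448483), was 20.7, 23.1 and 20.7 CPM in S534A, 19.6, 19.5 and 18.3 CPM in S545A, 19.0, 19.2 and 18.5 CPM in ∆GAG-BG and 21.3, 20.6 and 19.6 CPM in control vector libraries. It was the steadiest of the tested enzymes, with 1.26-fold between its extremes, and its S534A libraries all lay above its S545A and ∆GAG-BG libraries. CHST3, on the plus strand of chromosome 10 (71964365 to 72013564), was 33.9, 38.1 and 39.6 CPM in S534A, 30.4, 42.0 and 43.2 CPM in S545A, 32.2, 38.6 and 39.5 CPM in ∆GAG-BG and 32.1, 34.6 and 38.0 CPM in control vector libraries. Library 1 was the lowest for CHST3 in all 4 groups, at 0.714 to 0.885 times the mean of libraries 2 and 3. CHST15, on the minus strand of chromosome 10 (124007666 to 124093607), had 1 count in S534A library 2, 2 counts in ∆GAG-BG library 2, 1 count in control vector library 2 and 0 in the other 9 libraries. All of these lie at or below the 3 counts that a count of 0 allows, so CHST15 mRNA was not detectable at this depth and no fold was computed.

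**Figure D2:**
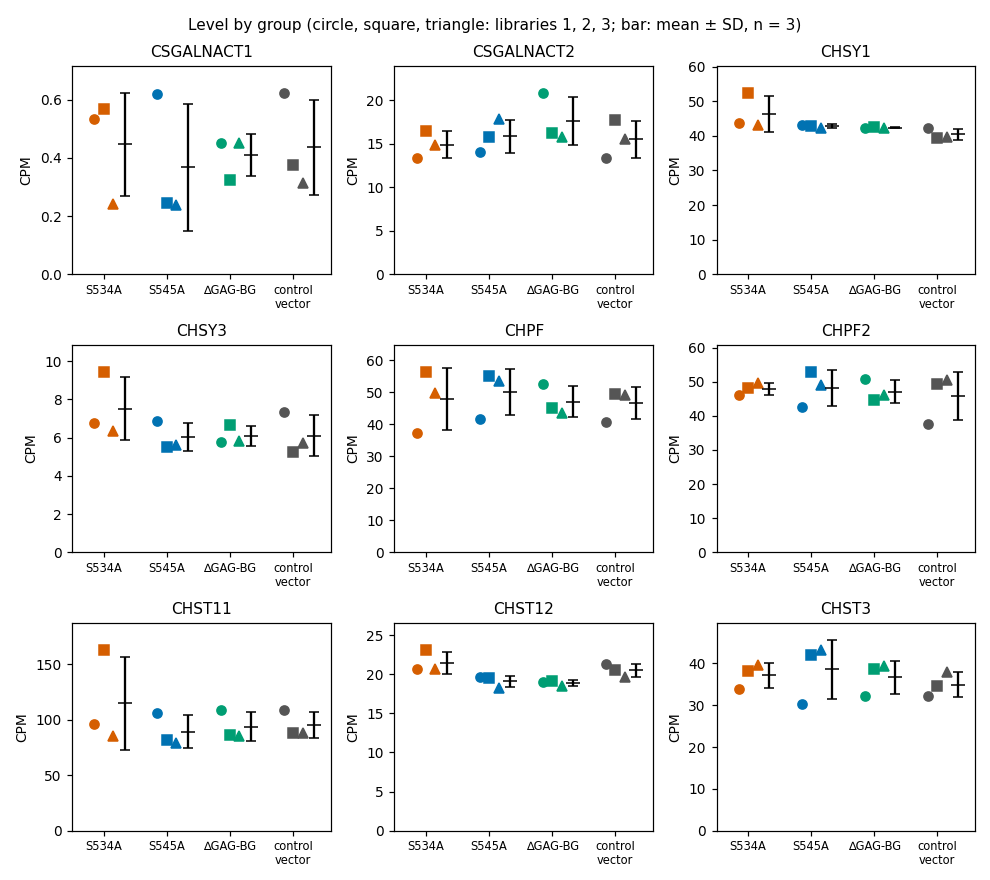
CPM of the 9 tested enzymes by group, with circles, squares and triangles for libraries 1, 2 and 3 and bars for the mean ± SD (n = 3). For CHST11, CHSY3 and CHSY1 the square of S534A, library 2, lies above all other points, at 163, 9.44 and 52.3 CPM. It is also the highest point for CHPF and CHST12, at 56.4 and 23.1 CPM.

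The balance between the 4-sulfating and the 6-sulfating enzymes was read as the ratio of CHST11 to CHST3 in TPM. It was 3.04, 4.59 and 2.32 in S534A, 3.75, 2.09 and 1.97 in S545A, 3.63, 2.41 and 2.33 in ∆GAG-BG and 3.63, 2.75 and 2.5 in control vector libraries. CHST11 was thus the higher per length in every library, and outside S534A library 1 had the highest ratio of its group. The group means were 3.32 ± 1.16, 2.6 ± 0.995, 2.79 ± 0.729 and 2.96 ± 0.594 (SD, n = 3 each) in the same order, and the ranges of the 4 groups overlapped. Adding CHST12 to CHST11 raised the range to 2.15 to 4.85. Adding CHST7 to CHST3 lowered it, with a ratio of CHST11 to both 6-sulfating enzymes of 1.37 to 3.2 and a median of 1.82, against a median of 2.62 with CHST3 alone. The labels name no batch for the library numbers, and a part of such a batch in these ratios was not tested.

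**Figure D3:**
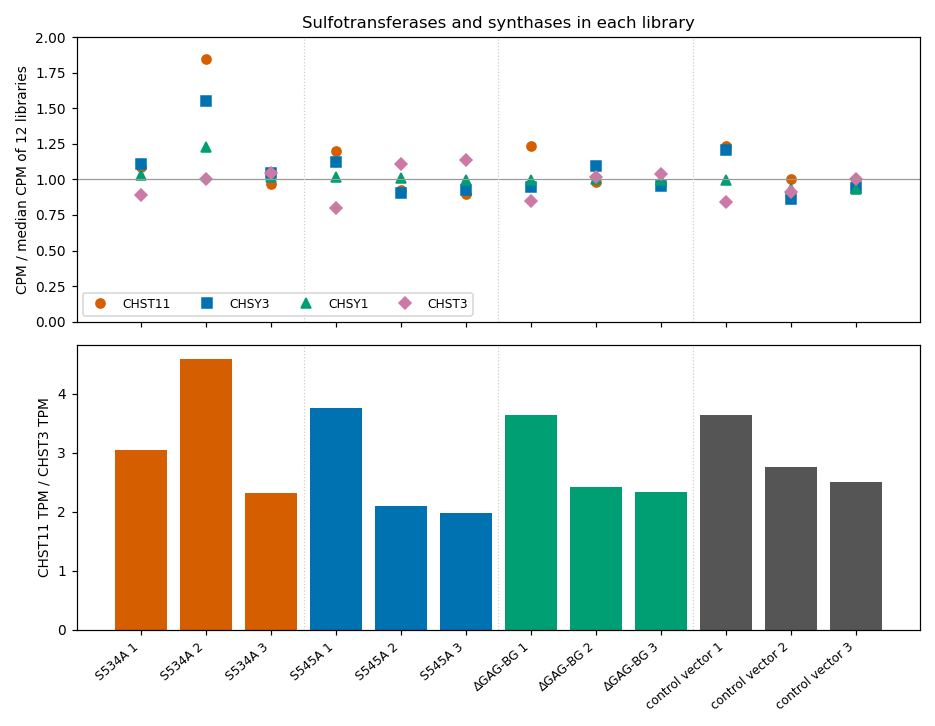
Upper panel, CPM of CHST11, CHSY3, CHSY1 and CHST3 in each library divided by the median of the 12 libraries; lower panel, ratio of CHST11 to CHST3 in TPM per library. S534A library 2 has the highest ratio, 4.59, and S545A library 3 the lowest, 1.97, and in S545A, ∆GAG-BG and control vector library 1 has the tallest bar.

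By the rule of the closest profile over the 12 libraries, the genes most like CHST11 were LAPTM5 (Pearson's r of log2(CPM + 1) 0.982), GSTO1 (0.981) and TGFBI (0.981). LAPTM5 is a lysosomal membrane protein, GSTO1 a glutathione transferase and TGFBI a secreted matrix protein named for its induction by TGF-β. TGFBI was 352, 1760 and 211 CPM in S534A, 391, 186 and 188 CPM in S545A, 471, 179 and 182 CPM in ∆GAG-BG and 346, 220 and 234 CPM in control vector libraries, again with its highest value in S534A library 2. Without that library r was 0.944, 0.944 and 0.936 over 11 libraries. The genes were picked as the highest of all tested, and their points share the same libraries and near-identical pairs, so r is a description only.

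Whether the level of the enzymes differed between groups was asked in 6 comparisons by edgeR's quasi-likelihood test, adjusted by Benjamini-Hochberg over all 16069 genes. By the labels, a comparison with control vector joins a change of serine with the presence of a betaglycan construct, and these cannot be told apart. No group had a construct of full-length betaglycan with both serines. Over the 54 values of 9 enzymes the log2 fold changes ran from -0.37 to 0.31. None had an adjusted p under 0.05, the smallest being 0.702 in edgeR, and 2 of 54 (3.70%) had an unadjusted p under 0.05, CHST12 and CHSY1, against 2.37% of the values of all genes. DESeq2 gave none past either threshold. In a comparison of bulk RNA, less RNA per cell and fewer cells that express a gene cannot be told apart. No gene of the whole table passed the adjusted threshold in any of the 6 comparisons (0% of genes tested in each).

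The S534A cells, CS-BG in the paper, were first set against ∆GAG-BG, in which both serines are changed. CHST12 averaged 21.5 ± 1.41 CPM (SD, n = 3) in S534A and 18.9 ± 0.37 CPM (SD, n = 3) in libraries labelled ∆GAG-BG. The log2 fold change was 0.19 (SE 0.0864) with an unadjusted p of 0.0479 and an adjusted p of 0.89 in edgeR. All 3 S534A libraries were above all 3 labelled ∆GAG-BG, for which the two-sided exact permutation test gave 0.1, the smallest p that 3 against 3 allows. CHST12 was 1 of 9 enzymes past the unadjusted threshold, where 2.99% of all genes were, and CHST12 and CHSY1 were the 2 of 9 whose groups did not overlap, where 5.66% of all genes did not. The median log2 fold change of the 9 enzymes was 0.129, against -0.003 over all genes tested, and without S534A library 2 the value for CHST12 was 0.14 with an edgeR p of 0.128. Without the 4 libraries whose TGFBR3 goes against the label, the ∆GAG-BG side is library 1 alone, the one with high HSPA5, and its spread is assumed to be that of the other groups. The log2 fold change of CHST12 was then 0.18 with an edgeR p of 0.257, and that of CSGALNACT2 was -0.48 with unadjusted p = 0.0328 in edgeR, a value that rests on that library.

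The S534A libraries were then compared with those labelled control vector. CHSY1 averaged 46.4 ± 5.16 CPM in S534A and 40.5 ± 1.6 CPM in the libraries labelled control vector (SD, n = 3 each), a log2 fold change of 0.20 (SE 0.0866) with an unadjusted p of 0.0422 and an adjusted p of 0.871 in edgeR. All 3 S534A libraries lay above all 3 labelled control vector, and the two-sided exact permutation p was again 0.1. CHSY1 was 1 of 9 enzymes past the unadjusted threshold, against 3.45% of all genes, and the only 1 of 9 without overlap, against 7.65%. Without S534A library 2 the log2 fold change was 0.10 with an edgeR p of 0.18. Without the 4 libraries whose TGFBR3 goes against the label it was 0.11 with an edgeR p of 0.463, where the control vector side is library 1 alone and its spread is assumed to be that of the other groups. The median log2 fold change of the enzymes was 0.08, against 0.008 over all genes tested.

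The single-chain mutants were compared with each other as S545A against S534A. No enzyme passed the unadjusted threshold in edgeR, where 4.78% of all genes did. The smallest p belonged to CHST12, at 19.1 ± 0.701 CPM in S545A and 21.5 ± 1.41 CPM in S534A (SD, n = 3 each), with a log2 fold change of -0.17 (SE 0.0862), unadjusted p = 0.072 and adjusted p = 0.702 in edgeR. CHST12 was also the only 1 of 9 enzymes whose groups did not overlap, against 10.1% of all genes, with S545A the lower. The largest fold change was that of CHST11, at -0.37 (SE 0.217) with an edgeR p of 0.118, from 115 ± 41.9 CPM in S534A to 89.1 ± 14.9 CPM in S545A, with S534A library 2 at 163 CPM. The median over the enzymes was -0.115, against 0 over all genes tested.

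S545A against ∆GAG-BG gave no enzyme past the unadjusted threshold in edgeR (1.10% of all genes) and none without overlap (5.05% of all genes). The smallest p was that of CSGALNACT2, with a log2 fold change of -0.15 (SE 0.149) and unadjusted p = 0.341 in edgeR. Its means were 15.9 ± 1.9 CPM in S545A and 17.6 ± 2.78 CPM for ∆GAG-BG (SD, n = 3 each), which includes the library with high HSPA5. Without that library the log2 fold change was 0.0 with an edgeR p of 0.975. In S545A against control vector no enzyme passed either (1.05% of all genes). CHST12 had the smallest p, at -0.10 (SE 0.0861) with unadjusted p = 0.274 in edgeR, and CHSY1 and CHST12 were the 2 of 9 without overlap (8.82% of all genes), CHSY1 higher and CHST12 lower in S545A. Library numbers were taken as pairs in this comparison, and within the 3 pairs 5 of 9 enzymes differed in a single direction, against 39.3% of all genes. CHSY1 and CHPF were higher in S545A in 3 of 3 pairs, and CSGALNACT1, CHST11 and CHST12 lower. Libraries 2 and 3 were nearly identical in S545A and in control vector (chi-square per degree of freedom 1.4 and 1.44), so pairs 2 and 3 are not separate evidence. In control vector libraries 2 and 3 TGFBR3 also goes against the label. With the number as a block, CHST3 had the smallest p of the 9, at a log2 fold change of 0.13 (SE 0.0865) with unadjusted p = 0.156 and adjusted p = 1.0 in edgeR.

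The libraries labelled ∆GAG-BG were compared last with those labelled control vector, the pair in which TGFBR3 goes against the labels in 4 of 6 libraries. No enzyme passed the unadjusted threshold in edgeR, where 0.865% of all genes did. CHST12 had the smallest p, at 18.9 ± 0.37 CPM against 20.5 ± 0.85 CPM (SD, n = 3 each), a log2 fold change of -0.12 (SE 0.0864) with unadjusted p = 0.194 in edgeR. Its groups did not overlap, which was so for 1 of 9 enzymes and for 4.87% of all genes. With libraries 2 and 3 of both groups left out, 1 library of each remained and CSGALNACT2 had a log2 fold change of 0.62 with an edgeR p of 0.0296, which assumes that a lone library varies like the other groups. The ∆GAG-BG library that then remained is the one with high HSPA5, whose part in this value was not tested. Each group enters 3 of the 6 comparisons, so a gene that is high in S534A appears in more than 1 of them.

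**Figure D4:**
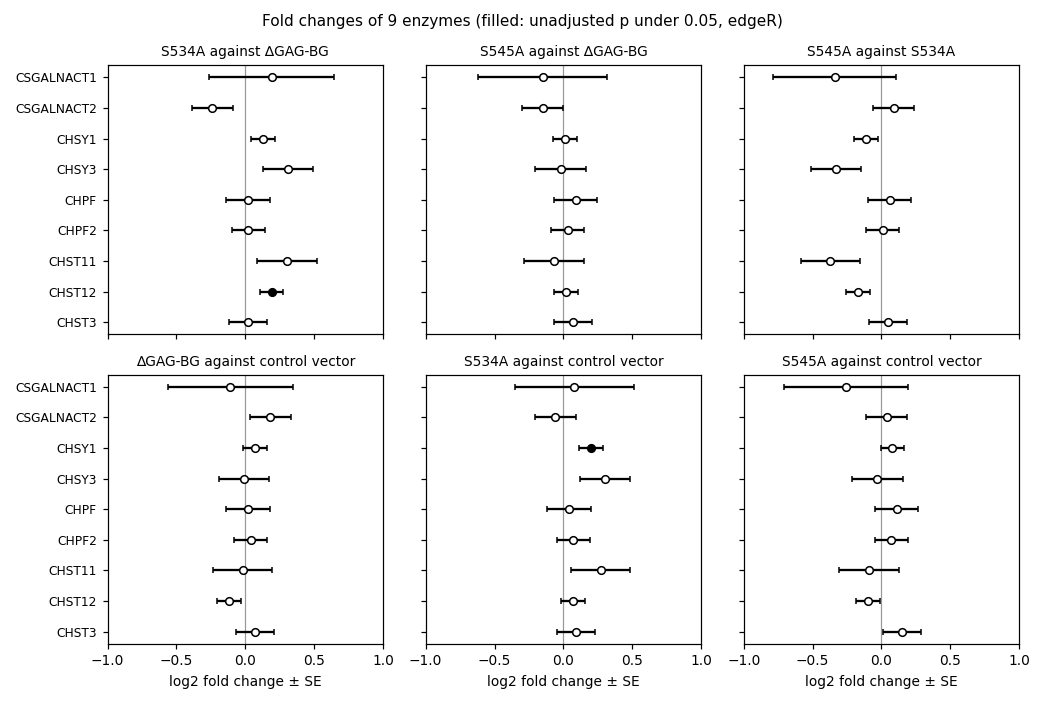
Log2 fold change of each of the 9 tested enzymes in the 6 comparisons of groups, with bars of 1 SE from edgeR and filled points for an unadjusted p under 0.05. Only CHST12 in S534A against ∆GAG-BG (0.19) and CHSY1 in S534A against control vector (0.20) are filled, and all values lie between -0.37 and 0.31.

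The pathway around the enzymes was read from 6 lists with 53 genes, of which 45 were tested: the linker, other enzymes of chondroitin and dermatan sulfate, the heparan sulfate branch, the supply of sugar and sulfate donors, breakdown, and proteins that carry chondroitin sulfate. Of their 270 edgeR values, 5 (1.85%) had an unadjusted p under 0.05 and none an adjusted one. Over all genes 2287 of 96414 values (2.37%) had an unadjusted p under 0.05. The 2 shares are close, so the count is not read as a result about the lists. Of the linker genes, 6 of 7 were tested and 1 value passed. B3GAT3, which adds the glucuronic acid that completes the linker, had a log2 fold change of 0.44 in S534A against control vector (edgeR unadjusted p = 0.0148, adjusted p = 0.871). The xylosyltransferase that begins the linker was represented by XYLT2, at 49.0 to 70.1 CPM, since XYLT1 had at most 1 count.

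Among the other chondroitin and dermatan sulfate enzymes, 5 of 6 were tested and 1 value passed. CHST14, the dermatan 4-O-sulfotransferase, had a log2 fold change of 0.28 in S534A against ∆GAG-BG (edgeR unadjusted p = 0.0479, adjusted p = 0.89), with overlapping libraries. Of the 12 donor supply genes all were tested and 3 values passed. SLC35D1, a Golgi and endoplasmic reticulum carrier of nucleotide sugars, had a log2 fold change of 0.31 in S534A against ∆GAG-BG (edgeR unadjusted p = 0.0315, adjusted p = 0.89) and of -0.28 in S545A against S534A (edgeR unadjusted p = 0.0488, adjusted p = 0.702). SLC26A2, the sulfate transporter of the cell membrane, had a log2 fold change of 0.20 in S534A against control vector (edgeR unadjusted p = 0.035, adjusted p = 0.871). All 5 values are comparisons with S534A, which also held 78.8% of the unadjusted calls over all genes, and in each S534A was the higher. Without S534A library 2 none of the 5 had an unadjusted p under 0.05 in edgeR. That library had B3GAT3 at 32.4 CPM, where the other S534A libraries had 20.7 and 21.3 CPM, and leaving it out gave a log2 fold change of 0.20 (edgeR unadjusted p = 0.0759). It had CHST14 at 32.6 CPM, where the others had 23.6 and 23.9 CPM, and leaving it out gave a log2 fold change of 0.12 (edgeR unadjusted p = 0.257). SLC35D1 moved to 0.20 and -0.16 (edgeR unadjusted p = 0.128 and 0.205), and SLC26A2 stayed at 0.19 (edgeR unadjusted p = 0.0525). None passed among the 4 tested of 5 heparan sulfate branch genes, the 9 of 9 breakdown genes or the 9 tested of 14 carriers. Among the carriers, SRGN, the core protein of the serglycin proteoglycan, was 214 to 305 CPM and CD44 911 to 1660 CPM, while ACAN and DCN, the core protein genes of aggrecan and decorin, were at 0 counts in all 12 libraries.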

How the data were processed

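RNA-seq counts of 12 HEYA8 libraries (4 groups of 3, taken from the labels) were used. The authors deposited raw counts per gene with gene lengths, without normalization. The submitters' processing notes name FastQC, Trim Galore 0.4.5, STAR 2.4, SAMtools 1.2 and featureCounts, and the paper names bioJupies for differential expression. These notes give a mouse build, while the table holds human genes with GRCh38 coordinates, and no source used here states the strand setting. Low genes were removed from the deposited counts with filterByExpr at a minimum count of 10. TMM scaling and edgeR's robust quasi-likelihood test followed (edgeR 4.0.16, limma 3.58.1, R 4.3.3), with a single model for all libraries, 8 residual degrees of freedom and a biological coefficient of variation of 0.163. For single enzymes an exact permutation test (two-sided) was run on log2(CPM + 1). The edgeR test was also run on simulated counts, with all libraries drawn independently at a single spread. Outside S534A, libraries 2 and 3 of a group are nearly identical, so the simulation cannot show how the test behaves on them. Floors cover counting error only, and total counts of 16410001 to 29504297 set the precision.

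The 10 enzymes, the 6 pathway lists and the marker lists were chosen with earlier results of these data known. All enzymes were named, as were pathway genes with an unadjusted p under 0.05 (at most 2 per list and comparison), the enzyme of smallest p where none passed, TGFBR3, HSPA5, and the 3 genes most correlated with the most variable enzyme; other genes were named as markers, overlapping neighbours, or, after their values were seen, XYLT1, XYLT2, EXTL3, CHST7, CHST13, HSP90B1, CALR, SRGN, CD44, ACAN and DCN, and CHST11 in S545A against S534A. PDIA4, HERPUD1, XBP1, ATF4, DNAJB9, SDF2L1 and DDIT3 were also named after their values were seen. The symbol BPNT2 was matched through its synonyms to IMPAD1. Alternatives were DESeq2 1.42.0, no filter, scaling by RLE or by library size only, a fit of the compared pair of groups alone, a block for the replicate number, leaving out each replicate, libraries 2 and 3 summed, and the 4 libraries with TGFBR3 against the label left out; the pathway count without S534A replicate 2 was added after seeing the data. Libraries of the same number deviated together in S545A and control vector (correlations of 0.58, 0.29 and 0.27), so the numbers were taken as pairs for that comparison, on these correlations alone. Because libraries 2 and 3 were nearly identical in both groups, these correlations are not independent of each other. In each of the other 5 comparisons at least 1 correlation was under 0.1. Endoplasmic reticulum stress was summarised by 10 genes, whose mean log2(CPM + 1) was 9.14 in library 1 labelled ∆GAG-BG and 5.73 to 7.77 in the others, with the lowest in S534A library 2. The mutated codons cannot be read from a table of counts per gene.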

Additional observations from a re-analysis of the deposited data

How the results depend on the processing

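No direction of the 6 fold changes with full statistics was reversed by an alternative that was run. No enzyme had an adjusted p under 0.05 in edgeR or DESeq2 under any of them. The log2 fold change of CSGALNACT2 in S545A against ∆GAG-BG shrank to -0.0 without ∆GAG-BG replicate 1. No alternative exchanged the 4 libraries whose TGFBR3 goes against the label, so directions under such an exchange were not tested. The counts of enzymes past an unadjusted p of 0.05 were less stable. In S534A against ∆GAG-BG and in S534A against control vector the count of 1 became 0 with no filter, with DESeq2, with only the 2 groups in the fit and with libraries 2 and 3 summed. DESeq2 gave unadjusted p = 0.0607 for CHST12 and unadjusted p = 0.0525 for CHSY1. With each replicate left out in turn the counts were 0 to 2 in both. S534A against ∆GAG-BG gave 0 without S534A replicate 2 or any 1 of the ∆GAG-BG replicates, and 2 without S534A replicate 3, where CHST11 was added (0.47, edgeR unadjusted p = 0.0459). S534A against control vector gave 0 without S534A replicate 2 or control vector replicate 2 or 3, and 2 without control vector replicate 1, where CHSY3 was added (0.46, edgeR unadjusted p = 0.0376). In S545A against S534A the range was 0 to 1, with CHST11 past the threshold without S534A replicate 3 (-0.54, edgeR unadjusted p = 0.026). In S545A against control vector it was also 0 to 1, with CHST3 past it without S545A replicate 1 (0.29, edgeR unadjusted p = 0.0283). Without the 4 libraries whose TGFBR3 goes against the label, the count became 0 for S534A set against control vector, became 1 for ∆GAG-BG set against it, and stayed 1 in S534A against ∆GAG-BG with another gene. That setting leaves 1 library on the ∆GAG-BG and control vector sides, with the spread of the other groups assumed. The count of pathway values, 5, became 0 without S534A replicate 2, an alternative chosen after seeing the data, and was 4 or 5 under DESeq2, both scalings and no filter. The cause of these moves was not tested beyond the smaller number of libraries in the fits that leave some out. The replicate block gave CHST12 a log2 fold change of 0.19 (edgeR unadjusted p = 0.0446) and CHSY1 one of 0.19 (edgeR unadjusted p = 0.0487), and changed no call. Depth limits CSGALNACT1, with 4 to 18 counts, and CHST15, with 0 to 2.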
